A study of Mus musculus with 9 samples.

Results

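The 10 genes described here encode proteins that move water, chloride, bicarbonate, sodium and short-chain fatty acids across the wall of the mouse colon. They were listed by symbol and matched through their Ensembl identifiers. The rule uses no measured value, but the members were chosen with earlier results of these data known. All 10 were found among 22262 genes counted in at least 1 library, and all 10 were among the 17441 genes with enough counts to be tested (at least 4 CPM in 1 library). They are the water channels Aqp8 and Aqp4, the anion exchangers Slc26a3 and Slc26a2, the sodium and proton exchanger Slc9a3, the epithelial sodium channel subunits Scnn1b and Scnn1g, the chloride channel Cftr, the cotransporter Slc12a2 and the monocarboxylate transporter Slc5a8.

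RNA came from the colon of 9 female wild-type C57BL/6N mice aged 12 months, 1 library per mouse. WT_SE denotes the 4 mice (numbers 1, 2, 3 and 5) of the standard environment, with 3 to 4 mice per cage, and WT_EE the 5 mice (numbers 1 to 5) kept from weaning in an enriched environment, which the labels call enhanced, with 8 mice per cage and running wheels, tunnels and other objects. Neither group carried a transgene, and the groups differ in housing, including the number of cage mates. From each mouse a piece of 2 to 3 cm of the upper colon was rinsed in buffer, and it held all layers of the wall.

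The colon takes up most of the salt and water that reach it. In surface cells, sodium enters through Slc9a3 in exchange for protons or through the epithelial sodium channel (ENaC), chloride enters through Slc26a3 in exchange for bicarbonate, and water follows. In crypt cells, Slc12a2 loads chloride from the blood side and Cftr releases it into the lumen, which drives fluid secretion. Several of these genes are known to differ along the length of the colon.

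Because Aqp8 had the widest range between mice of the 8 members well above the detection floor, the stretch of its promoter around the start site is shown. It lies on the plus strand of GRCm38.p6 at chr7:123462277-123462306 in the RefSeq promoter table, and its capitals mark the letters CAATAAA read on the opposite strand, a motif of the kind that Cdx and posterior Hox proteins are known to bind.

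Aqp8: cccattcgggcTTTATTGctttctggacac

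The match began 6 bases before the RefSeq start site. CAATAAA on either strand was present in 1511 of 32851 RefSeq promoters of the same length (4.60%), each of 250 bases before and 50 after the start site. Of the 7 members searched, Aqp8 alone held it, and Aqp4, Slc26a2 and Slc12a2 were not among those searched. A match or its lack in this window says nothing of binding.

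Molecules were counted next to the poly(A) tail with unique molecular identifiers, so counts do not grow with transcript length. Levels of members near or over 100 counts were compressed, as the slopes of counts on library totals show, and are not comparable as molecules with those of lower members. Library totals ranged from 299062 to 383401 counts in WT_SE and from 295535 to 454043 in WT_EE. Values are CPM, each count divided by the library total and rescaled, after TMM scaling, a library-size correction, and 3 counts, taken as the floor of detection, equalled 6.61 to 10.2 CPM. Mice of a group differed by a biological coefficient of variation of 15.1% over all genes. The tissue was checked against its markers, and all 10 epithelium markers and all 6 goblet cell markers were counted. Epithelium markers summed to 2796 to 3403 CPM in WT_SE and to 2979 to 3829 CPM in WT_EE (exact permutation test, two-sided, p = 0.571), with 1 of 10 higher in WT_EE at an unadjusted p under 0.05. Of the other markers, goblet cell markers summed to 2186 to 2870 and 2153 to 3188 CPM in WT_SE and WT_EE, crypt base markers to 493 to 582 and 452 to 656 CPM, smooth muscle markers to 1540 to 1974 and 1508 to 2841 CPM, adipocyte markers to 61.3 to 587 and 102 to 302 CPM, and endothelium markers to 101 to 167 and 140 to 207 CPM.

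Of the 10 members, Aqp8 was higher and Cftr lower in WT_EE than in WT_SE at an unadjusted p under 0.05 by edgeR's quasi-likelihood test. That is 2 of 10, against a background of 1334 of 17441 genes (7.65%), 751 higher (4.31%) and 583 lower (3.34%). After Benjamini-Hochberg adjustment over all genes tested, edgeR called none of the 10 and 7 of all genes (0.0401%), and DESeq2 called none of the 10 at an unadjusted p under 0.05. In none of the 10 did the groups occupy separate ranges, as they did in 450 of all genes tested (2.58%). The median log2 fold change of WT_EE over WT_SE was 0.06 over the members and 0.01 over all genes. It was above 0 in 7 of 10 members and in 8920 of 17441 genes. The 7 include Scnn1g, at or under the floor in every mouse, and Slc26a3, at 0.0002. Each of both calls was lost when any 1 of 4 mice was left out, as given for each gene. The p-values of edgeR weigh a difference against the spread between mice, which is estimated partly from other genes. Cage could not be told apart from environment, since the labels give no cage.

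**Figure D1:**
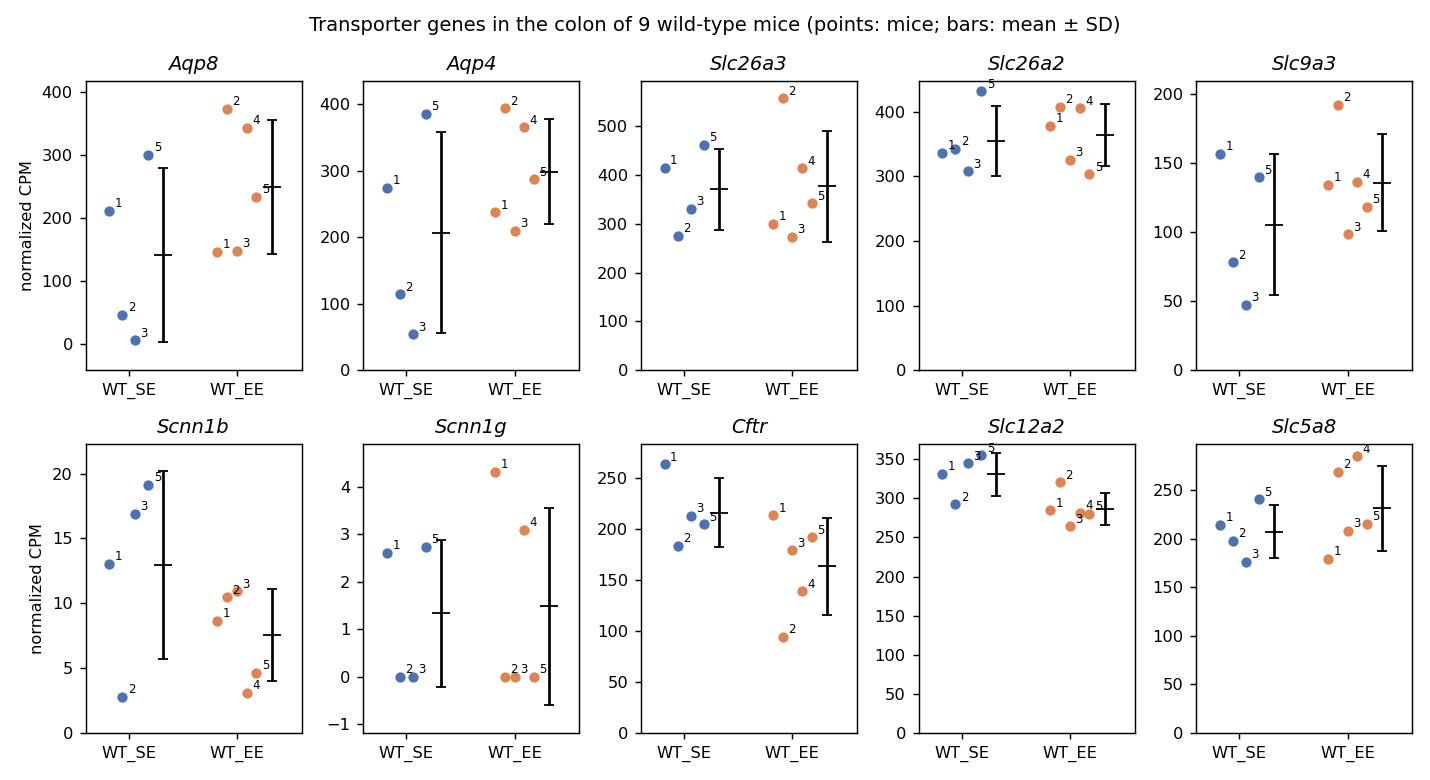
Normalized CPM (y axis, linear, a separate scale in each panel) of the 10 transporter genes in each of the 4 WT_SE and 5 WT_EE mice; points are mice with their numbers, and bars are the mean ± SD. WT_SE mice 2 and 3 lie lowest for Aqp8, Aqp4 and Slc9a3, whereas Slc12a2 and Slc26a2 vary little from mouse to mouse.

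Aqp8 (ENSMUSG00000030762, chromosome 7, 123462291 to 123468004, plus strand, GRCm38) encodes a water channel of the colonic surface epithelium. It was counted 81, 17, 2 and 110 times in WT_SE mice 1, 2, 3 and 5, and 68, 107, 68, 111 and 101 times in WT_EE mice 1 to 5. WT_SE mouse 3 was under the floor and WT_SE mouse 2 far below the other 7 mice, whereas the remaining WT_SE mice lay within the WT_EE range. In CPM, Aqp8 was 142 ± 138 in WT_SE (SD, n = 4) and 249 ± 106 in WT_EE (n = 5), a log2 fold change of 0.73 (SE 0.35). The quasi-likelihood test of edgeR gave an unadjusted p of 0.0426 and a Benjamini-Hochberg adjusted p of 0.628, and the exact permutation test (two-sided) gave p = 0.222. Within WT_SE the highest mouse was 44.5 times the lowest, with a 95% counting interval (exact binomial) of 12.02 to 372 because the lowest had 2 counts, against 2.54 times in WT_EE, and the coefficient of variation of 97.6% in WT_SE compares with 13.8% from counting alone. In edgeR the call was lost without WT_SE mouse 2 (log2 fold change 0.43), WT_SE mouse 3 (0.38), WT_EE mouse 2 (0.54) or WT_EE mouse 4 (0.58). The call was kept without any other single mouse, and the log2 fold change was 1.37 without WT_SE mouse 5 and 1.45 with limma-voom. Leaving out WT_SE mice 2 and 3 together, a choice made after their values were seen, turned the log2 fold change to -0.09. In tissue of mixed cells, fewer cells of a type and less RNA per cell cannot be told apart.

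Aqp4 (ENSMUSG00000024411), a water channel known from basolateral membranes of epithelia and from glia, was counted 105, 41, 16 and 141 times in WT_SE mice 1, 2, 3 and 5, and 110, 113, 96, 118 and 124 times in WT_EE mice 1 to 5. The same WT_SE mice, 2 and 3, were lowest, and the others overlapped with WT_EE. Its mean was 207 ± 151 CPM in WT_SE (SD, n = 4) and 299 ± 79.4 CPM in WT_EE (n = 5). The log2 fold change of 0.48 (SE 0.26, 95% interval -0.03 to 0.98) did not pass edgeR's test (p = 0.0708), and the exact permutation test gave p = 0.294. It did pass with limma-voom (0.73), with no filter on low counts (0.48), without scaling (0.57) and without WT_SE mouse 1 (0.64), WT_SE mouse 5 (0.96), WT_EE mouse 1 (0.55) or WT_EE mouse 3 (0.59), each value a log2 fold change. Markers of enteric glia summed to 32.8 to 86.3 CPM in WT_SE and 48.6 to 105 CPM in WT_EE, with Gfap at 0 to 5 counts, and their part in the Aqp4 values was not tested. Aqp8 was counted 0.125 to 0.780 times as often as Aqp4 in WT_SE and 0.618 to 0.947 times as often in WT_EE, and these ratios overlapped (exact permutation test, two-sided, p = 0.111).

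Slc26a3 (chromosome 12, 31390871 to 31473917, GRCm38), the apical exchanger of chloride for bicarbonate whose loss in people causes congenital chloride diarrhea, had the highest mean CPM of the members. Over the 9 mice it was at 375 CPM, close to Slc26a2 at 360 CPM. Its counts were 159, 99, 98 and 169 in WT_SE mice 1, 2, 3 and 5, and 139, 160, 125, 134 and 148 in WT_EE. WT_SE mice 2 and 3 were the lowest by count, with a small gap to the others, but not in CPM. There WT_EE mouse 3 was lowest, at 273, followed by WT_SE mouse 2 (276) and WT_EE mouse 1 (300), with WT_SE mouse 3 at 331. The means were 371 ± 83.4 CPM (SD, n = 4) and 378 ± 114 CPM (n = 5), and the log2 fold change was near 0 with a 95% interval of -0.35 to 0.35 (edgeR p = 0.999, exact permutation p = 0.929). The highest mouse was 1.68 times the lowest in WT_SE and 2.04 times in WT_EE. The gene overlaps Gm9359 on the same strand, so reads of the pair could not be separated with certainty.

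Slc26a2 (ENSMUSG00000034320), a sulfate transporter, was counted 129, 123, 91 and 158 times in WT_SE mice 1, 2, 3 and 5, and 175, 117, 149, 131 and 131 times in WT_EE. No mouse stood apart and the groups overlapped, with means of 355 ± 53.6 CPM (SD, n = 4) and 364 ± 47.4 CPM (n = 5). Its log2 fold change was 0.03 (SE 0.14, 95% interval -0.24 to 0.30, edgeR p = 0.848, exact permutation p = 0.778).

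Slc9a3 (chromosome 13, 74121457 to 74169442, GRCm38), the apical exchanger of sodium for protons also called NHE3, was counted 60, 28, 14 and 51 times in WT_SE mice 1, 2, 3 and 5, and 62, 55, 45, 44 and 51 times in WT_EE. As with the water channels, WT_SE mice 2 and 3 were lowest and the others overlapped. The means were 105 ± 51.3 CPM (SD, n = 4) and 136 ± 34.8 CPM (n = 5), with a log2 fold change of 0.31 (SE 0.22, 95% interval -0.13 to 0.74) that did not pass edgeR's test (p = 0.179, exact permutation p = 0.349). Without WT_SE mouse 1 it passed, at 0.57.

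The ENaC subunits were at the edge of detection. Scnn1b was counted 5, 1, 5 and 7 times in WT_SE and 4, 3, 5, 1 and 2 times in WT_EE, so 3 of 4 and 2 of 5 mice were above the floor of 3 counts. Its log2 fold change of -0.73 had an SE of 0.56 (edgeR p = 0.201, exact permutation p = 0.183), and no difference was detectable at this depth. Scnn1g was counted 0 to 2 times in every mouse, at or under the floor in both groups, and no fold is given. Scnn1a, the alpha subunit, was higher than either, at 41.8 ± 16.9 CPM in WT_SE (SD, n = 4) and 52.7 ± 13.5 CPM in WT_EE (n = 5), with a log2 fold change of 0.36 (SE 0.28) that did not pass the test.

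Cftr (chromosome 6, 18170687 to 18322768, GRCm38), the chloride channel that opens the route of secretion into the lumen, was counted 101, 66, 63 and 75 times in WT_SE mice 1, 2, 3 and 5, and 99, 27, 82, 45 and 83 times in WT_EE mice 1 to 5. WT_EE mice 2 and 4 were lowest, and the other WT_EE mice lay within or close to the WT_SE range. It was 216 ± 33.8 CPM in WT_SE (SD, n = 4) and 164 ± 47.4 CPM in WT_EE (n = 5), and the log2 fold change of -0.37 (SE 0.17) had an unadjusted p of 0.0346 and a Benjamini-Hochberg adjusted p of 0.595 in edgeR, with an exact permutation p of 0.143. The call was lost without WT_EE mouse 2 (log2 fold change -0.24), WT_EE mouse 4 (-0.31), WT_SE mouse 1 (-0.25) or WT_SE mouse 3 (-0.37). WT_EE mice 2 and 4 also had the smallest WT_EE libraries, of 295535 and 336967 counts, and without scaling to library size the log2 fold change was -0.18 and the call was lost. The same 2 mice had the highest smooth muscle marker sums, 2841 and 2839 CPM against 1508 to 1974 CPM in the other 7 mice. They were also highest in epithelium (3678 and 3829 CPM, others at most 3403), goblet cell, crypt base, glia and endothelium markers, but not in adipocyte markers. As counts, muscle markers summed to 815 and 918 in them and to 832 in WT_EE mouse 5. At an unadjusted p under 0.05, edgeR called 2 of 6 muscle markers higher in WT_EE, against 7.65% of all genes in either direction. These were Acta2 (log2 fold change 0.36, exact permutation p = 0.278) and Des (0.38, exact permutation p = 0.246). The part of library size and of muscle in the Cftr values was not tested. Cftr overlaps Gm15595 on the same strand and Gm15592 on the other.

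Slc12a2 (ENSMUSG00000024597), the sodium, potassium and chloride cotransporter that loads chloride into secreting crypt cells, varied least between mice among the 8 members well above the floor. It was counted 127, 105, 102 and 130 times in WT_SE mice 1, 2, 3 and 5, and 132, 92, 121, 91 and 121 times in WT_EE. The counts overlapped throughout. In CPM all 4 WT_SE mice, at 292 to 355, overlapped with WT_EE, at 264 to 321, only through WT_SE mouse 2 and WT_EE mouse 2. The means were 331 ± 27.6 CPM (SD, n = 4) and 286 ± 20.8 CPM (n = 5), with a log2 fold change of -0.21 (SE 0.13, 95% interval -0.47 to 0.04) that edgeR did not call (p = 0.110), whereas the exact permutation test (two-sided) gave p = 0.0476. It was the only member under 0.05 in that test on CPM, and no share over all genes is given for this test. On the counts as deposited the exact permutation p was 0.659. Counts in its range rose little with library totals (slope 0.403), and mean totals were 352041 in WT_SE and 391500 in WT_EE. The part of library size in its CPM was not tested. With scaling to epithelium markers, edgeR called it lower (log2 fold change -0.26). The spread of CPM in WT_SE, 8.33%, was no larger than the 9.28% that counting alone gives.

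Slc5a8 (chromosome 10, 88885992 to 88929515, GRCm38), the sodium-coupled carrier of short-chain fatty acids such as butyrate, was counted 82, 71, 52 and 88 times in WT_SE mice 1, 2, 3 and 5, and 83, 77, 95, 92 and 93 times in WT_EE. WT_SE mouse 3 was lowest and the groups overlapped. The means were 207 ± 27.3 CPM (SD, n = 4) and 231 ± 44.0 CPM (n = 5), and the log2 fold change of 0.13 (SE 0.15, 95% interval -0.16 to 0.43) did not pass edgeR's test (p = 0.383, exact permutation p = 0.365).

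**Figure D2:**
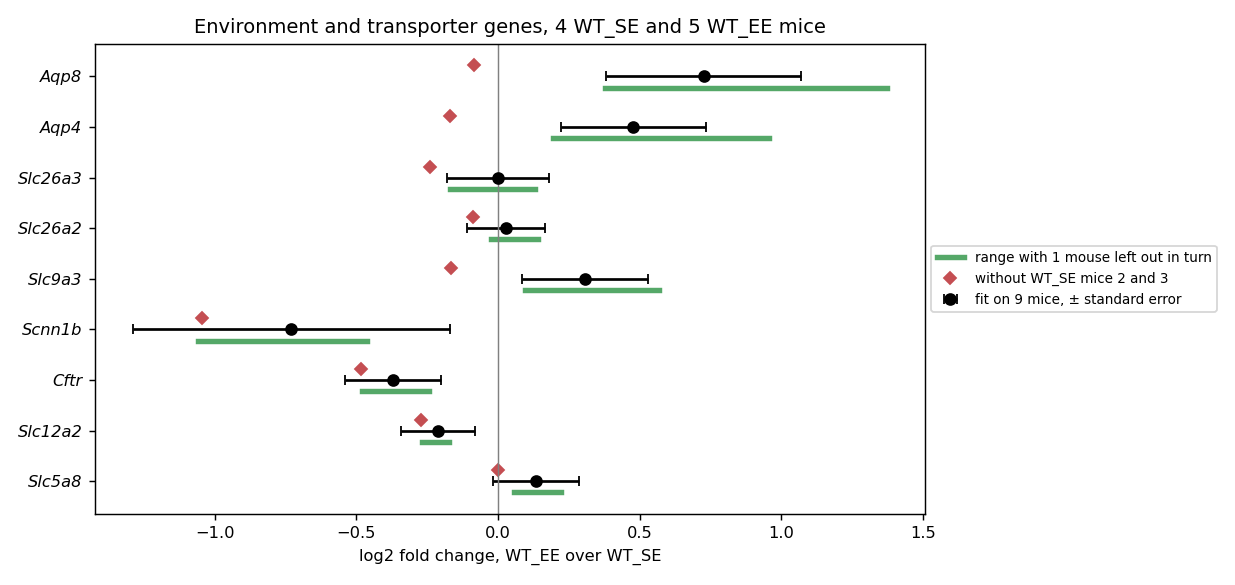
Log2 fold change of WT_EE over WT_SE from edgeR (x axis) for the transporter genes, except Scnn1g. Black points and bars are the fit on 9 mice ± SE, green lines the range with 1 mouse left out in turn, and red diamonds the fit without WT_SE mice 2 and 3; Aqp8 at 0.73 and Cftr at -0.37 are the 2 members with an unadjusted p under 0.05, and the values of Slc26a3 and Slc26a2 are close to 0.

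Ordered by mean CPM over the 9 mice, Slc26a3 and Slc26a2 came first, then Slc12a2, Aqp4, Slc5a8, Aqp8, Cftr and Slc9a3, with Scnn1b and Scnn1g far under the rest. Neighbours in this order from Slc26a3 to Slc9a3 overlapped in their ranges over the 9 mice, and the order was not tested. The order also rests on compressed counts for the most abundant members. The biological coefficient of variation was 41.8% for Aqp8, 29.0% for Aqp4, 20.1% for Slc9a3, 17.6% for Slc26a3 and 14.97% for Cftr, and 12.7% for Slc5a8, 12.4% for Slc26a2 and 10.2% for Slc12a2.

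Across the 9 mice, Aqp8 and Aqp4 moved together. Over 28 pairs of the 8 members with a mean of at least 20 CPM, on log2 CPM, the pair Aqp8 and Aqp4 had Pearson's r = 0.99 (permutation p = 2.8e-05, Benjamini-Hochberg 0.000772) and Spearman's rho = 0.97 (permutation p = 0.000165, adjusted 0.00231). Without WT_SE mice 2 and 3, the farthest from the median, r was 0.97. Aqp4 and Slc9a3 had r = 0.95 (permutation p = 0.000576, adjusted 0.00730) and rho = 0.87 (permutation p = 0.00451, adjusted 0.0316), and r fell to 0.68 without those mice. Aqp8 and Slc9a3 had r = 0.94 (permutation p = 0.000783, adjusted 0.00730) and rho = 0.82 (permutation p = 0.0108, adjusted 0.0431), and r fell to 0.64. Of the 28 pairs, 19 had r above 0, 3 passed the adjustment for r and 7 for rho. With the mean of each environment removed, a check added after seeing the data, r was 0.99 for Aqp8 and Aqp4, 0.94 for Aqp4 and Slc9a3 and 0.93 for Aqp8 and Slc9a3. All points share library depth.

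The genes whose log2 CPM over the 9 libraries was most like that of each member were taken from 6059 genes with a mean of at least 50 CPM, as a description. For Aqp8 they were Hoxa11os (r = 0.998), Aqp4 and Clca4a (r = 0.99), and for Aqp4 they were Aqp8, Hoxa11os (r = 0.987) and Cavin3 (r = 0.984). Hoxa11os, an antisense transcript of the posterior gene Hoxa11, was counted 40, 10, 1 and 60 times in WT_SE mice 1, 2, 3 and 5 and 34, 63, 41, 55 and 49 times in WT_EE, lowest in WT_SE mice 3 and 2 as Aqp8 was. It overlaps Hoxa11 on the other strand, and whether counting used strand is not stated. For Slc26a3 they were Ets2, the monocarboxylate transporter Slc16a1 and Purb (r = 0.96 to 0.98), for Slc9a3 Trp53inp2, Rnf152 and Aqp4 (r = 0.95 to 0.97), and for Slc5a8 Creb3l2, Picalm and Mylk (r = 0.97 to 0.99). For Cftr they were Ndufs7, Pycard and Degs2 (r = 0.97 to 0.98), for Slc26a2 Sytl2, Sorbs2 and Itgb4 (r = 0.92 to 0.99), and for Slc12a2 Rpl22, Lypla1 and Fam32a (r = 0.93 to 0.94).

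The libraries also differed in genes of position along the gut. Slc10a2, the ileal bile acid transporter, was counted 110 times in WT_SE mouse 3, 103 in WT_SE mouse 2, 107 in WT_EE mouse 1 and 117 in WT_EE mouse 3, and 3 to 26 times in the other 5 mice. The 4 mice with 50 or more Slc10a2 counts, a limit set after these counts were seen, were the 4 lowest for Aqp8. Aqp8 spanned 6.76 to 149 CPM in these 4 and 211 to 373 CPM in the other 5, and Aqp4 54.1 to 237 and 274 to 394 CPM. Slc26a3 at 273 to 331 against 342 to 558 CPM and Slc5a8 at 176 to 208 against 214 to 285 CPM were also without overlap. Slc9a3, Cftr, Slc12a2 and Slc26a2 overlapped in CPM. As counts, Aqp4 (16 to 110 against 105 to 141), Slc26a3 (98 to 139 against 134 to 169) and Slc5a8 (52 to 95 against 77 to 93) overlapped too. No share over all genes is given for this split of the mice. Fabp6, the ileal bile acid binding protein, was at 14 to 34 counts in the 4 mice and 0 to 5 in the others, but Fabp2, the fatty acid binding protein of the small intestine, overlapped at 250 to 311 and 264 to 377 CPM. The posterior Hox genes did not move one way. Hoxb13 was at 0, 0, 0 and 21 counts in the 4 mice and at 4 to 56 in the others, and Hoxa13 at 30.6 to 60.9 and 76.4 to 109 CPM, whereas Hoxd10 was higher in the 4 mice, at 5 to 22 counts against 0 to 2, as was Hoxd11, at 14 to 28 against 4 to 11. Over both environments, genes of the ileum and cecum side summed to 373 to 730 CPM in WT_SE and 298 to 586 CPM in WT_EE (exact permutation test, p = 0.365), with Apoa1 at 0 or 1 count, and posterior Hox genes to 141 to 284 and 99.3 to 289 CPM (p = 0.643).

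**Figure D3:**
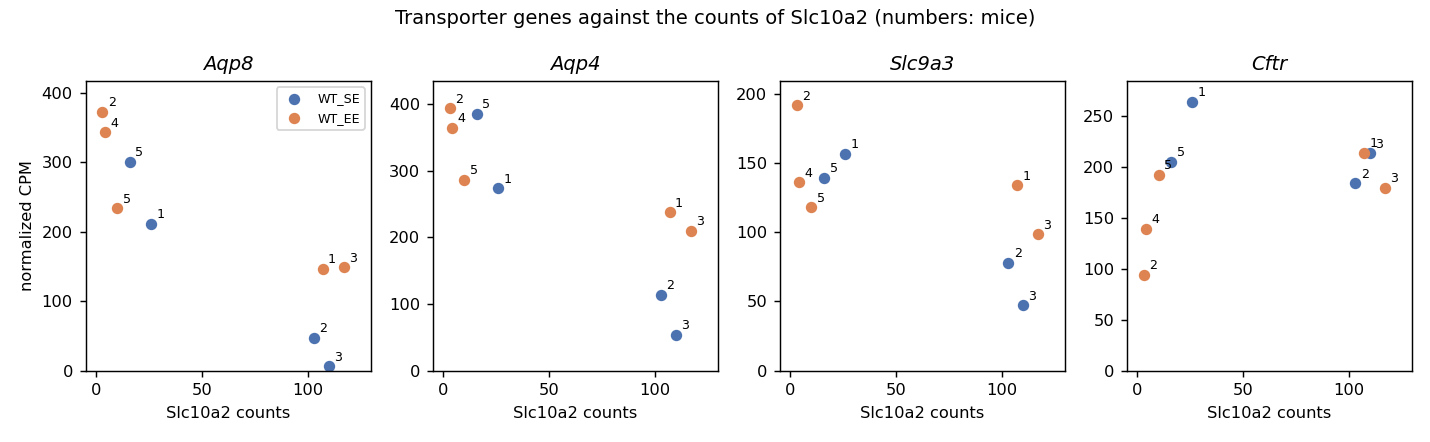
Normalized CPM of Aqp8, Aqp4, Slc9a3 and Cftr (y axis) against Slc10a2 counts (x axis, linear) in each of the 9 mice, coloured by environment. The 4 mice with more than 100 Slc10a2 counts, WT_SE mice 2 and 3 and WT_EE mice 1 and 3, hold the 4 lowest Aqp8 and Aqp4 values.

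Each environment had mice of both kinds, and comparisons within each kind were made after seeing the counts. Among mice with 50 or more Slc10a2 counts, Aqp8 was at 2 and 17 counts in WT_SE and at 68 and 68 in WT_EE, a log2 fold change of 2.35. Among the others it was at 81 and 110 counts in WT_SE and 101 to 111 in WT_EE, a log2 fold change of 0.29. Aqp4 had 1.37 and 0.07 in the same comparisons, Slc9a3 0.86 and -0.02, and Cftr -0.01 and -0.68. With the kind as a covariate, the log2 fold change was 0.79 for Aqp8, 0.52 for Aqp4 and -0.37 for Cftr. Whether the colon piece was taken at a different position in these mice was not tested.

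**Figure D4:**
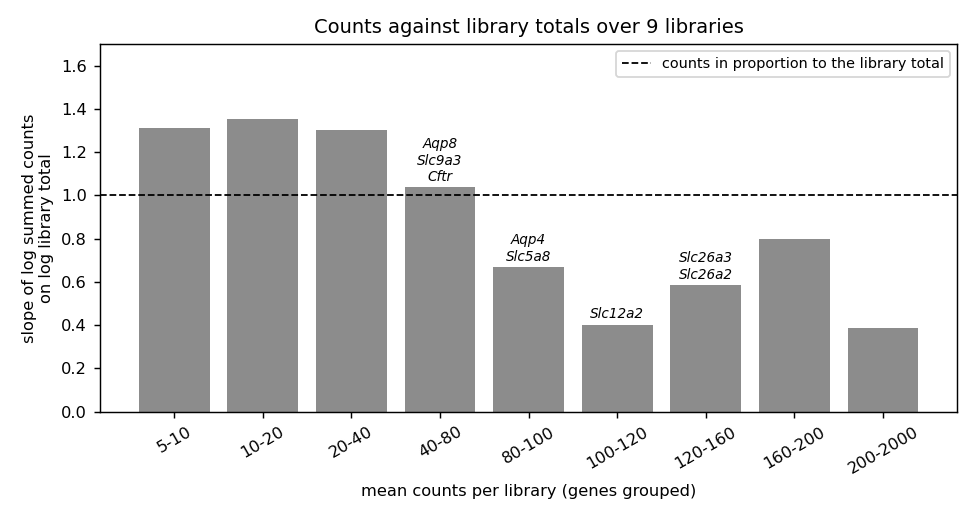
Slope of log summed counts on log library total over the 9 libraries (y axis) for genes grouped by mean count (x axis), with the bins that hold members named. The slope is 1.04 at 40 to 80 counts, 0.669 at 80 to 100 and 0.403 at 100 to 120, so counts near 100 do not rise in proportion to the library.

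Counts near 100 were compressed. A gene whose counts rise in proportion to the library total has a slope of 1, and the slope was 1.04 over genes of 40 to 80 mean counts, which hold Aqp8, Slc9a3 and Cftr. It was 0.669 at 80 to 100 counts (Aqp4 and Slc5a8), 0.403 over 350 genes at 100 to 120 counts (Slc12a2) and 0.585 over 84 genes at 120 to 160 counts (Slc26a3 and Slc26a2), against 1.35 over 2681 genes at 10 to 20 counts. These bins use the mean over mice. Aqp8 reached 101 to 111 counts in WT_SE mouse 5 and WT_EE mice 2, 4 and 5, and Cftr 101 in WT_SE mouse 1. The CPM of members in mice where they are near or over 100 counts therefore depends on depth as well as on the gene. That holds for Aqp8 in those mice too, and the cause of the compression was not tested. Slopes above 1 were also seen at 5 to 10 (1.31) and 20 to 40 mean counts (1.30). The CPM of genes with few counts, such as Atp12a (mean 7.0) and Oxsr1 (mean 12.3) described below, thus depends on depth as well.

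Other genes of water and ion transport were listed by their role: 72 genes, of which 67 were counted and 61 tested. Of these 61, 6 were higher and 3 lower in WT_EE at an unadjusted p under 0.05 by edgeR (14.8%, against 7.65% of all genes), none after adjustment, with a median log2 fold change of -0.03 and 25 of 61 above 0.

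Among other aquaporins, Aqp1, the water channel of vessels and red cells, was lower in WT_EE, at 131 ± 24.0 CPM in WT_SE (SD, n = 4) and 93.4 ± 15.2 CPM in WT_EE (n = 5). Its log2 fold change was -0.46 (SE 0.18, edgeR p = 0.0146, exact permutation p = 0.0238), and its counts were 37 to 54 in WT_SE and 23 to 49 in WT_EE. Only WT_SE mouse 2 lay within the WT_EE range in CPM. None of the 9 tested genes of sodium and proton exchange passed, and Ezr, the scaffold partner of Slc9a3 with the highest level of that list, had a log2 fold change of 0.12. Ahcyl1, a regulator of Slc9a3 and Cftr that edgeR did not call (p = 0.0522), had separate ranges, at 181 to 213 CPM in WT_SE and 133 to 178 CPM in WT_EE (log2 fold change -0.29, SE 0.14, exact permutation p = 0.00794, the smallest possible). Of 6 anion exchange and bicarbonate genes, Slc4a4, the basolateral sodium bicarbonate cotransporter, was lower (201 ± 48.4 and 156 ± 14.7 CPM, log2 fold change -0.34, SE 0.16, edgeR p = 0.0358, exact permutation p = 0.0714), and Slc4a7, the most abundant, was at -0.06.

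Of the 12 tested genes around ENaC, Spint2, an inhibitor of channel-activating proteases and the most abundant of them, was higher in WT_EE (175 ± 61.9 and 232 ± 47.5 CPM, log2 fold change 0.41, SE 0.18, edgeR p = 0.0305, exact permutation p = 0.159). Of the 6 sodium pump genes, Atp12a, the colonic proton and potassium pump, was higher, with 1, 0, 2 and 5 counts in WT_SE and 2, 25, 12, 14 and 2 in WT_EE. WT_EE mice 2, 3 and 4 carried that difference, and the others were at the level of WT_SE. The log2 fold change was 2.32 (SE 0.70, edgeR p = 0.00205, adjusted p = 0.248 by Benjamini-Hochberg, exact permutation p = 0.151). As 3 of 4 WT_SE and 2 of 5 WT_EE mice were at or under the floor, the size of this fold is uncertain, and it ran from 1.64 without WT_EE mouse 2 to 3.22 without WT_SE mouse 5. Atp1b1, the pump's beta subunit, was at 634 ± 38.1 and 573 ± 32.7 CPM (log2 fold change -0.15, SE 0.12).

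Of 15 chloride and potassium channels and regulators of cotransport, 3 were higher and 1 lower in WT_EE. Clca1, a mucus protein of goblet cells that acts on chloride channels and the most abundant of the list, was at 378 ± 108 CPM in WT_SE (SD, n = 4) and 545 ± 186 CPM in WT_EE (n = 5), a log2 fold change of 0.52 (SE 0.19, edgeR p = 0.00823, exact permutation p = 0.159). Clca4a, a surface relative of it, was counted 87, 36, 9 and 81 times in WT_SE and 70, 92, 79, 96 and 92 times in WT_EE (log2 fold change 0.60, SE 0.26, edgeR p = 0.0262, exact permutation p = 0.183), with WT_SE mice 2 and 3 lowest as for Aqp8. Without both its log2 fold change was near 0 (edgeR p = 0.995, with no exact permutation test made). Clcn2, a chloride channel, was counted 69, 54, 3 and 42 times in WT_SE mice 1, 2, 3 and 5 and 50 to 89 times in WT_EE (log2 fold change 0.59, SE 0.25, edgeR p = 0.0249, exact permutation p = 0.0714), with WT_SE mouse 3 far under the rest. Oxsr1, a kinase that activates Slc12a2, was lower (log2 fold change -0.61, SE 0.29, edgeR p = 0.0430, exact permutation p = 0.0238).

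Of 6 short-chain fatty acid and monocarboxylate genes, Ffar2, a receptor for these acids, was higher in WT_EE (120 ± 43.4 and 159 ± 23.9 CPM, log2 fold change 0.39, SE 0.19, edgeR p = 0.0431, exact permutation p = 0.127), and Bsg, the partner of monocarboxylate carriers, was at -0.02. None of the 4 guanylin pathway genes passed, and Guca2a, guanylin itself, was at 461 ± 86.9 and 505 ± 60.5 CPM (log2 fold change 0.12). Its receptor Gucy2c had separate ranges, at 197 to 232 CPM in WT_SE and 174 to 190 CPM in WT_EE (log2 fold change -0.24, SE 0.14, edgeR p = 0.0843, exact permutation p = 0.00794, the smallest possible). Ahcyl1 and Gucy2c, described after their values were seen, were the 2 of 61 transport genes whose groups did not overlap (3.28%, against 2.58% of all genes), and on the counts as deposited their exact permutation p was 0.532 and 0.698. Separate ranges by themselves bring the permutation p to or near the smallest possible, so on CPM it adds nothing to them.

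Of these 9 calls, that of Atp12a alone held with every single mouse left out. Without WT_SE mouse 3, edgeR no longer called Aqp1 (log2 fold change -0.36), Slc4a4 (-0.19), Clcn2 (0.26), Clca4a (0.30), Oxsr1 (-0.50) or Ffar2 (0.37). Without WT_SE mouse 2 it no longer called Slc4a4 (-0.29), Clca1 (0.36), Clca4a (0.45), Oxsr1 (-0.57) or Ffar2 (0.20), and the call of Spint2 was lost without WT_SE mouse 1 (0.30) or WT_SE mouse 5 (0.25). Those of Oxsr1 and Ffar2 were also lost without WT_SE mouse 1 (-0.63 and 0.41). Of WT_EE mice, leaving out mouse 1 ended the call of Oxsr1 (-0.62), mouse 2 those of Slc4a4 (-0.29), Spint2 (0.33), Clca4a (0.46) and Ffar2 (0.33), and mouse 3 that of Oxsr1 (-0.56). Leaving out WT_EE mouse 4 ended those of Clca1 (0.34), Clca4a (0.50) and Oxsr1 (-0.57), and mouse 5 those of Slc4a4 (-0.32), Spint2 (0.38), Oxsr1 (-0.58) and Ffar2 (0.35). Clcn2 overlaps Fam131a and Polr2h, Oxsr1 overlaps Slc22a14 on the same strand, and Clca4a overlaps Gm16233 and Gm35066, so their counts are uncertain to that extent.

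**Figure D5:**
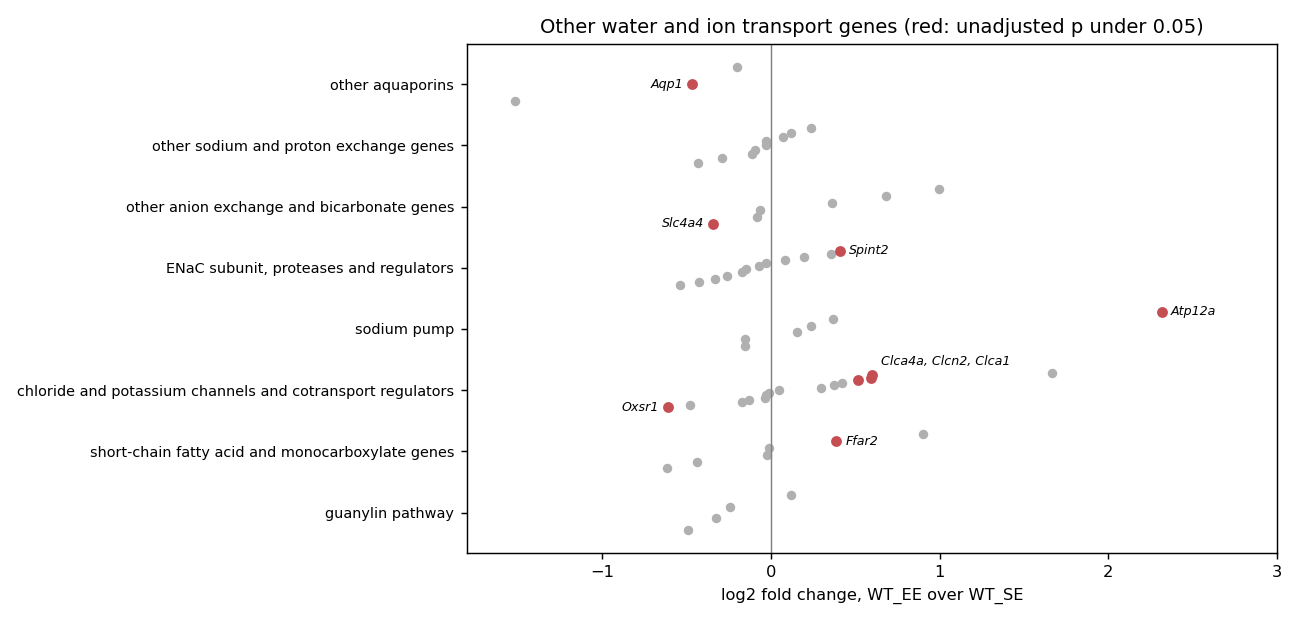
Log2 fold change of WT_EE over WT_SE (x axis) for the 61 other transport genes tested, one row of points per list and one point per gene, with red points for an unadjusted p under 0.05. The 9 red points are Aqp1, Slc4a4 and Oxsr1 to the left of 0 and 6 genes to the right, with Atp12a farthest right.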

How the data were processed

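Colon RNA of 9 wild-type mice was analysed, grouped by environment from the sample labels. The authors made 3′ libraries with unique molecular identifiers and deposited whole-number molecule counts per gene and mouse, without normalization. The submitters' processing notes name fastp 0.20.0, STAR 2.7.0f, featureCounts 1.6.0 and UMI-tools, with GRCm38.p6. Symbols, positions and overlaps came from GENCODE. Genes that reached 4 CPM in 1 or more libraries were tested with edgeR 4.0.16 (TMM, quasi-likelihood test, environment as the only term) in R 4.3.3, with Benjamini-Hochberg adjustment over 17441 genes. Exact two-sided permutation tests used the 126 splits of 9 mice, and their smallest p is 0.00794. DESeq2 1.42.0 and limma 3.58.1 (voom) served as alternatives, and the scripts were tested on simulated data. The members and the gene lists were chosen with earlier results of these data known. Named genes are the members, transport genes with an unadjusted p under 0.05, the most abundant gene of each transport list and the 3 genes most like each member. Scnn1a, Ahcyl1, Gucy2c, Acta2, Des and the single position genes were named after their values were seen. 1 gene of the transport lists is not reported here and was left out of their counts. Protein sequences were not used here.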

Additional observations from a re-analysis of the deposited data

How the results depend on the processing

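The count of members called, 2, was 1 with upper-quartile scaling, with a filter of 4 CPM in at least 4 libraries, in the mice with under 50 Slc10a2 counts and without WT_SE mice 2 and 3. It was 0 with DESeq2, with the ending of the library names as a covariate, without WT_SE mice 1 and 3 (the 2 libraries with that ending) and at a p limit of 0.01, and it was 0 to 3 with each mouse left out. It was 3 with limma-voom, with no filter and with the Slc10a2 covariate, each time with Aqp4 added, with epithelium scaling, which added Slc12a2, and in the mice with 50 or more Slc10a2 counts, where Aqp8, Aqp4 and Slc9a3 were called. After Benjamini-Hochberg adjustment, 1 member passed with no filter and 1 with a replicate block. With the Slc10a2 covariate 2 passed, as did 2 in the mice with 50 or more Slc10a2 counts (2 WT_SE and 2 WT_EE), and 0 in the main fit. No share over all genes is given for the Slc10a2 settings, so their counts cannot be read as particular to the members. The 9 transport genes called were 2 with DESeq2, 3 with the ending as a covariate, 4 without WT_SE mice 1 and 3, and 5 to 13 with each mouse left out. All genes called, 1334, were 643, 688 and 680 in those 3 settings and 899 to 1581 with each mouse left out. The share of calls that were higher in WT_EE was 56.3%, and 45.0% with upper-quartile scaling, 42.2% with scaling to epithelium markers and 87.8% without scaling, which moved the median of all genes by 0.16. The permutation test called 1 member on CPM and 0 on counts as deposited, with no share over all genes given for it.

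Mice of the 2 environments that share a number are different animals, and the correlations of their deviations were -0.02, 0.05, 0.15 and 0.15 over 5812 genes, so the number does not pair them. With a replicate block on mice 1, 2, 3 and 5, 3 members, 8 transport genes and 1149 genes in all were called, and 0 members in the same 8 mice without the block. In these 8 mice, 77 genes passed the adjustment with the block and 2 without it. Of all 9 mice, 143 genes passed with no filter on low counts, against 7. The SE of Aqp8 was 0.157 with no filter, 0.175 with the block and 0.155 with the Slc10a2 covariate. It was 0.345 in the main fit and 0.85 with DESeq2. That of Slc26a2, which varied little between mice, was 0.142, 0.150 and 0.131 in the same 3 settings. The p-values of Aqp8 in those settings therefore do not carry its full spread between mice.

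Without WT_SE mice 2 and 3, the log2 fold changes turned to -0.086 for Aqp8, -0.17 for Aqp4 and -0.16 for Slc9a3, and were -0.24 for Slc26a3 and -0.089 for Slc26a2. Slc26a3, near 0 at first, was -0.0040 with DESeq2 size factors, -0.027 with upper-quartile scaling, -0.0034 with library totals, -0.0049 with the stricter filter, -0.059 with limma-voom, -0.047 with the block and -0.034 without it, -0.063 with epithelium scaling, -0.042 with the Slc10a2 covariate, -0.014 under and -0.077 over 50 Slc10a2 counts, and -0.17 to 0.13 with each mouse left out. Slc26a2 was -0.012 with upper-quartile scaling, -0.00082 with the block and -0.0076 without it, -0.097 with the ending covariate, -0.086 without WT_SE mice 1 and 3, -0.029 with epithelium scaling, -0.055 under 50 Slc10a2 counts and -0.024 to 0.14 with each mouse left out. Slc9a3 was -0.023 under 50 Slc10a2 counts and Scnn1b 0.075 over it. Of 234 member values in all alternatives, 168 kept their direction and side of the threshold. The causes were not tested. The Slc10a2 settings, the unscaled counts and the removal of WT_SE mice 2 and 3 were chosen after seeing the data.

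With 3 counts as the floor, Scnn1b and Scnn1g allow no comparison, and counting intervals cover counting error only. Each gene is seen in 4 and 5 mice of 1 sex and age, and the position of the colon piece is known only as upper colon. That ending occurs in WT_SE alone, which leaves WT_SE mice 2 and 5 to part it from the environment.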

Other observations

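Retnlb, a goblet cell protein of the colon, was chosen after its values were seen because its low mice were those of Aqp8. It was at 1 and 21 counts in the WT_SE mice with 50 or more Slc10a2 counts, at 108 and 113 in the WT_EE mice of that kind, and at 115 to 162 in the WT_EE and 121 to 131 in the WT_SE mice with fewer. Hoxa7 was at 9 and 27, 51 and 62, 41 to 70, and 54 to 66 counts in the same order. In 38 groups of 4 or 5 values of the members and the 9 other transport genes called, no single mouse stood apart by Dixon's test at its 95% limit, where chance gives 1.9; a pair of low mice, as for Aqp8 in WT_SE, is not seen by that test.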
